A study of Mus musculus with 4 samples.

Results

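Genes of microtubule motors, microtubule-associated proteins and tubulins were examined in mouse brain at postnatal day 15, from corpus callosum pooled with cortex. The members were chosen by gene name, whatever their level: kinesins and their light chains, cytoplasmic and axonemal dyneins, dynactin, intraflagellar transport genes, the MAPs, tau, stathmins, end-binding and severing proteins, Tppp genes, alpha and gamma tubulins and some beta tubulins. They were 52 of the 5282 genes in the authors' deposited table. Pdgfra-creER;SmoM2 mice (SmoM2, 2 samples) were set against wild type mice (WT, 2 samples), and all 4 samples came from animals given tamoxifen between postnatal days 5 and 7. The SmoM2 allele encodes an always active form of Smoothened, the signal transducer of the hedgehog pathway. Pdgfra-creER is a tamoxifen-inducible recombinase driven by a gene of oligodendrocyte precursors and of fibroblasts, while RNA was measured from all cells of the tissue. The share of cells in which the allele was activated was not measured. The labels say neither whether the WT mice carried either allele nor whether each sample was 1 animal. P-values therefore measure the spread between these samples, which may be technical.

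Microtubules are polymers of alpha and beta tubulin, and gamma tubulin seeds them. Kinesins and dyneins are ATP-driven motors that carry cargo along them, most kinesins outward along axons and cytoplasmic dynein back to the cell body, while structural MAPs bind and stabilise the polymer. In neurons they form the tracks of axons and dendrites, in oligodendrocytes they carry myelin components into processes, in dividing cells they build the spindle, and in ciliated cells axonemal dyneins drive the beating of cilia.

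Per sample, the table gives an expression level that looks scaled by library size and gene length. It could be TPM or FPKM, which no source used here states, and depth is unknown. Summed over the table, levels came to 491481 and 469062 in the SmoM2 samples and to 508519 and 512833 in the WT samples. Each listed gene had been selected by the authors at an unadjusted p of at most 0.05 on these same samples, so a gene with no row is not analysed here and every member had already passed that filter. "Rose", "fell" and "called" mean that the authors' deposited table gives an adjusted p no higher than 0.05. In bulk tissue, fewer cells of a type and less RNA per cell cannot be told apart.

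Of the 52 members, 36 were higher and 16 lower in SmoM2 by the authors' log2 fold change. The share that was higher was 69.2% of the members and 53.2% of all listed genes. The share called was 46.2%, with 18 members that rose and 6 that fell, where 37.3% of all listed genes were called, 21.3% as higher and 16.0% as lower. The authors' deposited table gives the 52 a median log2 fold change of 0.30, and all its genes one of 0.23. At the stricter adjusted p of 0.01 it calls 14 members, 11 higher and 3 lower, where 22.9% of all listed genes are called. Levels did not overlap between the groups for 34 members that were higher and 12 that were lower. Of all listed genes 84.7% had groups apart, 49.5% higher and 35.2% lower. Counts near such shares say nothing particular about these genes. A recalculation with limma on log2(level + 1), fitted on the 4845 listed genes whose mean level reached 1, covered 47 members. By limma, 0 of the 47 passed an adjusted p of 0.05, where 0.124% of the genes fitted passed. That adjustment counted 57010 tests, the number behind the authors' adjusted p, and not only the 4845 genes fitted. The count of 0 depends on that choice. At an unadjusted p under 0.05 limma gave 28 higher and 5 lower members, against 40.7% and 14.8% of all genes fitted. The limma log2 differences below are therefore given with their standard errors as a description. They lie above the authors' values for most members. Over all listed genes of that level, the log2 ratio of the mean levels exceeded the authors' log2 fold change by a median of 0.08. The median limma log2 difference was 0.36 over the members and 0.25 over all genes fitted.

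**Figure D1:**
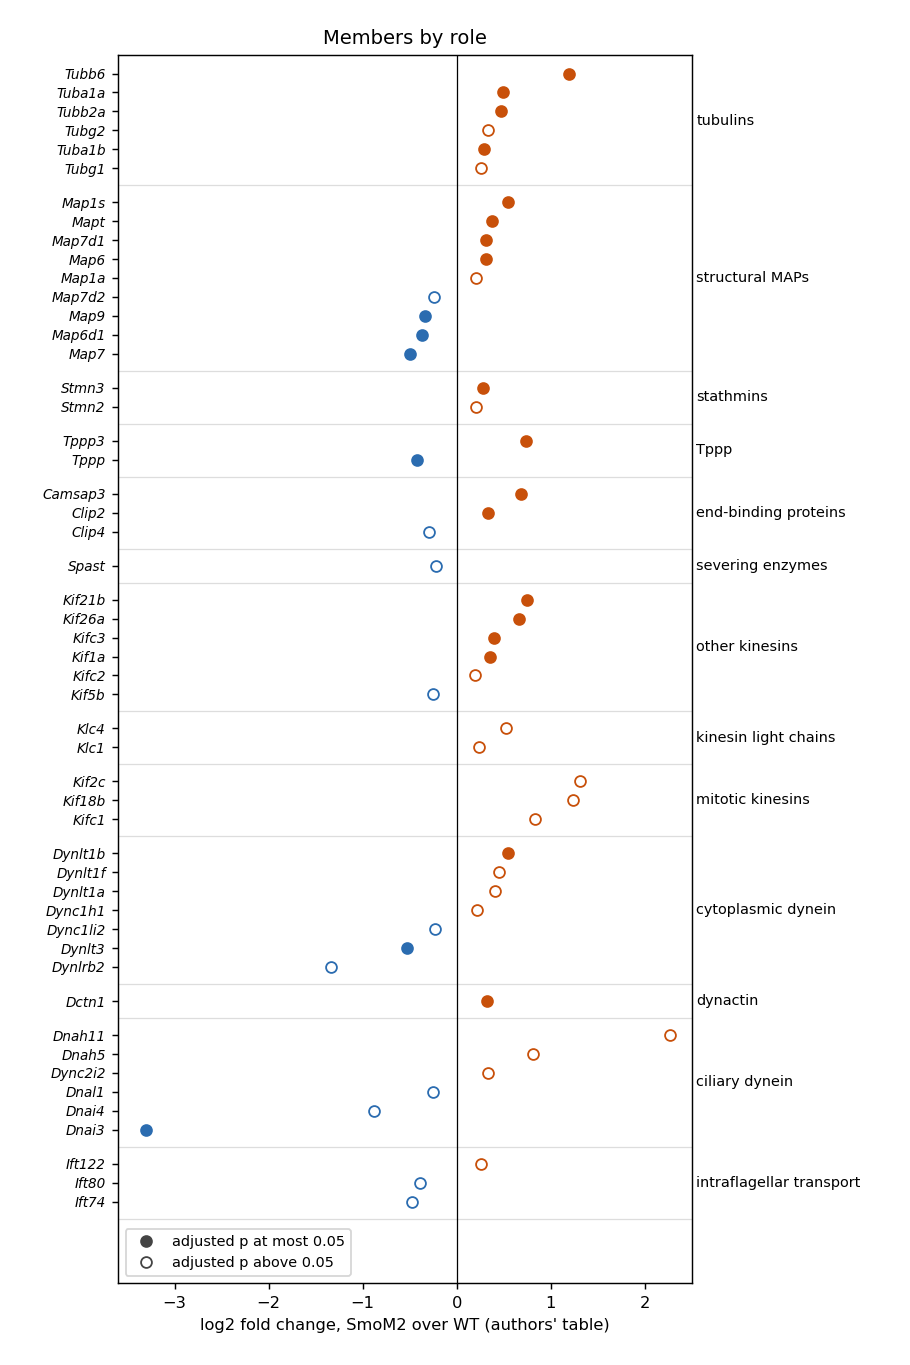
Log2 fold change of SmoM2 over WT in the authors' deposited table (horizontal axis) for 51 of the 52 members, grouped by role; filled points have an adjusted p of at most 0.05 and open points a higher one. All 6 tubulins lie to the right of 0, while structural MAPs, cytoplasmic dynein and ciliary dynein have members on both sides.

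Tubulins were higher in SmoM2, and 4 of the 6 listed rose, where 21.3% of all listed genes rose. Tuba1a, the main alpha tubulin of young neurons, had levels of 5034 and 5402 in the SmoM2 samples, against 3559 and 3499 in the WT samples. It was the member of highest level, at chr15:98949837-98953703 (GRCm38, GENCODE M21), and its groups were well apart. Its mean was 5218 ± 261 (SD, n = 2) in SmoM2 and 3529 ± 41.8 (SD, n = 2) in WT. The authors' deposited table gives it a log2 fold change of 0.49 (adjusted p = 1.72e-09). Tubb2a, a beta tubulin of neurons, had levels of 2759 and 3036 in SmoM2, against 1967 and 2008 in WT, and a log2 fold change of 0.47 (authors' deposited table, adjusted p = 3.86e-07). Tuba1b, an alpha tubulin made in many cell types, had 1348 and 1491 in SmoM2, against 1102 and 1099.9 in WT, with a log2 fold change of 0.29 (authors' deposited table, adjusted p = 0.0183). These 3 abundant tubulins did not overlap between the groups. Tuba1a and Tuba1b encode nearly the same protein and could share reads. Exons of both also overlap the annotated gene Gm49450 on the same strand. Summed, the levels of Tuba1a and Tuba1b were 6382 and 6893 in SmoM2 and 4660 and 4599 in WT. Tubb6, a beta tubulin of low level in brain, had 8.80 and 7.80 in SmoM2, against 4.05 and 2.76 in WT. Its log2 fold change of 1.20 was the highest among the members that rose (authors' deposited table, adjusted p = 0.000154), and its limma log2 difference was 1.09 ± 0.21 (SE). Tubg1 and Tubg2, the gamma tubulins, were higher in both SmoM2 samples but were not called. Tubg2 had 63.74 and 73.86 in SmoM2, against 48.24 and 55.12 in WT, and came close to the threshold (authors' deposited table, adjusted p = 0.0616). The marker list for neurons had 4 of 10 genes in the table, of which Tubb3 rose and Snap25 and Syt1 fell. Elavl3 was higher and not called. Tubb3 is itself a beta tubulin, left out by the naming rule, with 1125 and 1167 in SmoM2, against 626.1 and 669.7 in WT. Snap25 had 1285 and 1277 in SmoM2, against 1485 and 1794 in WT. The summed level of the list, over genes that went both ways, was 3031 and 3090 in SmoM2 and 2753 and 3214 in WT. Some other marker lists stood higher in SmoM2. Of 7 leptomeningeal fibroblast markers 6 had a row and all 6 rose, 1 with overlapping groups. Their summed level was 94.35 and 83.73 in SmoM2 and 44.46 and 35.61 in WT. Of 5 endothelial markers 4 had a row, all higher, and 3 rose. Of 6 oligodendrocyte precursor markers 5 had a row, all higher, and 2 rose. The astrocyte and microglia lists went both ways. The part of neuronal or other cell content in the levels of tubulins or other members was not tested.

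The promoter of Tuba1a is shown because its transcript was the most abundant of the members. The window, from RefSeq on GRCm38.p6, the build that the submitters' processing notes name, runs from 250 bases before the start to 50 after it. Capitals mark the CCAAT box described below.
Tuba1a, chr15:98953452-98953751, minus strand: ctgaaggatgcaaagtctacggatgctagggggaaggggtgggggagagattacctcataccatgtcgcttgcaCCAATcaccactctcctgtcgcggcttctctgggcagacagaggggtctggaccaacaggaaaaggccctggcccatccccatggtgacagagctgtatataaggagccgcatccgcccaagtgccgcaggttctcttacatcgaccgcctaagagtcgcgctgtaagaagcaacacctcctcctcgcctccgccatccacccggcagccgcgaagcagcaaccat
Of the 52 members, 32 had a window, 39 windows in all. 4 motifs were searched on both strands: CCAAT, the box bound by NF-Y; TTTGAA, the CHR element of cell cycle genes; GTTGCC, one arm of the X-box bound by RFX factors of ciliated cells; and CCACCCA, the core of the site bound by Gli factors, the transcription factors of the hedgehog pathway. None of the 4 occurs within another. The CCAAT box was in 11 of the 39 windows, 28.2%, against 37.4% of 32851 promoters of all genes. The Gli core was in 3 of the 39 windows, those of Clip4, Dnal1 and Map1a, 7.69% against 9.30% of all promoters. The CHR element was in 20.5% against 17.9%, and the X-box arm in 12.8% against 12.5%. The members' shares of all 4 motifs were thus close to or under those of all promoters. A match is a description of letters, not a binding site.

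Structural MAPs moved both ways. Of the 9 listed, 4 rose and 3 fell, where 21.3% of all listed genes rose and 16.0% fell. Mapt, at chr11:104231390-104332090 (GRCm38), encodes tau, the MAP of axons, and had levels of 220.8 and 246.5 in SmoM2, against 165.5 and 174.5 in WT. Map1s, a widely expressed relative of the neuronal MAP1 proteins, had 35.08 and 35.00 in SmoM2, against 22.35 and 22.26 in WT, so replicates differed by under 0.1 of a unit. Their log2 fold changes were 0.37 for Mapt and 0.55 for Map1s (authors' deposited table, adjusted p = 0.00244 and 0.000123). The rise of Map6, which stabilises microtubules against cold, was closer to the threshold. Map6 had 141.9 and 142.4 in SmoM2, against 104.4 and 116.1 in WT, with adjusted p = 0.0450 (authors' deposited table). Map7d1, a relative of Map7, rose too, by 0.32 on the log2 scale (authors' deposited table, adjusted p = 0.0384). Map1a, a MAP of dendrites and axons, had 153.4 and 151.2 in SmoM2, against 116.8 and 130.04 in WT, and was not called (authors' deposited table, adjusted p = 0.231). Its exons overlap those of Ppip5k1 on the other strand.

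Map7, Map6d1 and Map9 fell. Map7 recruits and activates kinesin-1, and had 24.86 and 22.48 in SmoM2, against 27.12 and 30.25 in WT. The authors' deposited table gives it a log2 fold change of -0.49 (adjusted p = 0.00113), while the limma log2 difference of its levels was -0.27 ± 0.12 (SE). Map6d1, a small relative of Map6, had 33.48 and 38.30 in SmoM2, against 42.15 and 46.04 in WT, with a log2 fold change of -0.37 (authors' deposited table, adjusted p = 0.0220). Map9, a MAP of the spindle and of cilia, had 37.71 and 34.06 in SmoM2, against 38.92 and 47.07 in WT. The groups of all 3 were separate but near each other. The fall of Map9 rests on WT replicate 2. It was called (authors' deposited table, adjusted p = 0.0401), and its limma log2 difference of -0.25 was -0.12 without that library and -0.38 without WT replicate 1. Map7d2, a MAP7 relative of neurons, had a log2 fold change of -0.24 and was not called.

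Among stathmins, which bind tubulin dimers and favour disassembly, Stmn3 rose. Stmn3 had levels of 1432 and 1557 in SmoM2, against 1195 and 1139 in WT (authors' deposited table, adjusted p = 0.0421). Stmn2, a stathmin of growing axons, had 1083 and 1103 in SmoM2, against 899.9 and 882.2 in WT. Its groups did not overlap, but its log2 fold change of 0.21 was not called (authors' deposited table, adjusted p = 0.222). The Tppp genes, which encode proteins that bundle and polymerise tubulin, split. Tppp, a microtubule organiser of oligodendrocytes, had 120.6 and 116.9 in SmoM2, against 144.0 and 158.7 in WT. It fell, with a log2 fold change of -0.42 (authors' deposited table, adjusted p = 0.000692). Tppp3, at chr8:105467493-105471526 (GRCm38), had 78.86 and 83.82 in SmoM2, against 49.99 and 40.21 in WT, and rose by 0.73 on the log2 scale (authors' deposited table, adjusted p = 1.08e-06). All 10 marker genes of oligodendrocytes had a row and fell, where 16.0% of all listed genes fell. Their summed level was 3033 and 3416 in SmoM2 and 6336 and 5949 in WT. That is a wider gap than that of Tppp; its part in the fall of Tppp was not tested.

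Of the proteins that bind microtubule ends, Camsap3 and Clip2 rose. Camsap3, at chr8:3587293-3609075 (GRCm38), holds free minus ends and had levels of 38.02 and 38.61 in SmoM2, against 21.65 and 28.05 in WT. Clip2, a linker at plus ends that is abundant in dendrites, had 72.16 and 71.36 in SmoM2, against 50.94 and 57.53 in WT. In both genes the SmoM2 samples lay close together above the WT samples. The log2 fold changes were 0.68 for Camsap3 and 0.33 for Clip2 (authors' deposited table, adjusted p = 9.55e-07 and 0.0382). Clip4, a relative of Clip2, was lower in both SmoM2 samples, at 24.55 and 28.38 against 36.80 and 33.75 in WT, and was not called (authors' deposited table, adjusted p = 0.185). Spast, which encodes the microtubule-severing enzyme spastin, had 26.30 and 23.52 in SmoM2 and 23.39 and 29.51 in WT. It was not called, and its groups overlapped.

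Among the kinesins other than the mitotic ones, 4 of 6 rose, where 21.3% of all listed genes rose. Kif21b, a motor of dendrites that also restrains microtubule growth, had levels of 101.5 and 88.83 in SmoM2, against 48.93 and 58.47 in WT. The gene lies at chr1:136131389-136177998 (GRCm38). Among the members it has the lowest adjusted p in the authors' deposited table, 9.94e-13. There its log2 fold change is 0.75, and the limma log2 difference was 0.82 ± 0.13 (SE). Kif1a, the motor of synaptic vesicle precursors, had 335.6 and 327.6 in SmoM2, against 236.3 and 251.2 in WT. Kifc3, a minus-end kinesin, had 37.08 and 36.91 in SmoM2, against 24.55 and 26.63 in WT. For both, the gap between groups was several times that between replicates. The authors' deposited table gives log2 fold changes of 0.35 for Kif1a (adjusted p = 0.00110) and 0.40 for Kifc3 (adjusted p = 0.0150). Exons of Kifc3 overlap a gene on the opposite strand, and it is not known here whether reads were counted by strand. Kif26a, a kinesin without motor activity, had 5.51 and 3.02 in SmoM2, against 2.58 and 2.56 in WT. It was called (authors' deposited table, adjusted p = 0.00549), but its rise rests on SmoM2 replicate 1. Its limma log2 difference of 0.52 was 0.17 without that library and 0.87 without SmoM2 replicate 2. The 5 marker genes of olfactory bulb were all called as higher and also stood out in that library. For 3 of them, Th, Tbx21 and Eomes, the groups overlapped. Summed levels of the 5 markers were 59.93 and 14.32 in SmoM2 and 10.91 and 10.20 in WT. Their part in the level of Kif26a was not tested.

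Kifc2, a minus-end kinesin of neurons and the most abundant of the kinesins, had 358.3 and 350.9 in SmoM2 and 284.5 and 302.6 in WT. It was not called (authors' deposited table, adjusted p = 0.353), nor was Kif5b, the ubiquitous kinesin-1 heavy chain. Kif5b had 25.56 and 22.09 in SmoM2 and 24.29 and 29.55 in WT, with groups that overlapped. The kinesin light chains, which tie cargo to kinesin-1, were higher without being called. Klc1 had 780.5 and 818.0 in SmoM2, against 653.0 and 661.9 in WT (authors' deposited table, adjusted p = 0.122). Klc4 had 13.10 and 12.96 in SmoM2, against 8.77 and 8.37 in WT, with a log2 fold change of 0.53 that came close to the threshold (authors' deposited table, adjusted p = 0.0619).

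**Figure D2:**
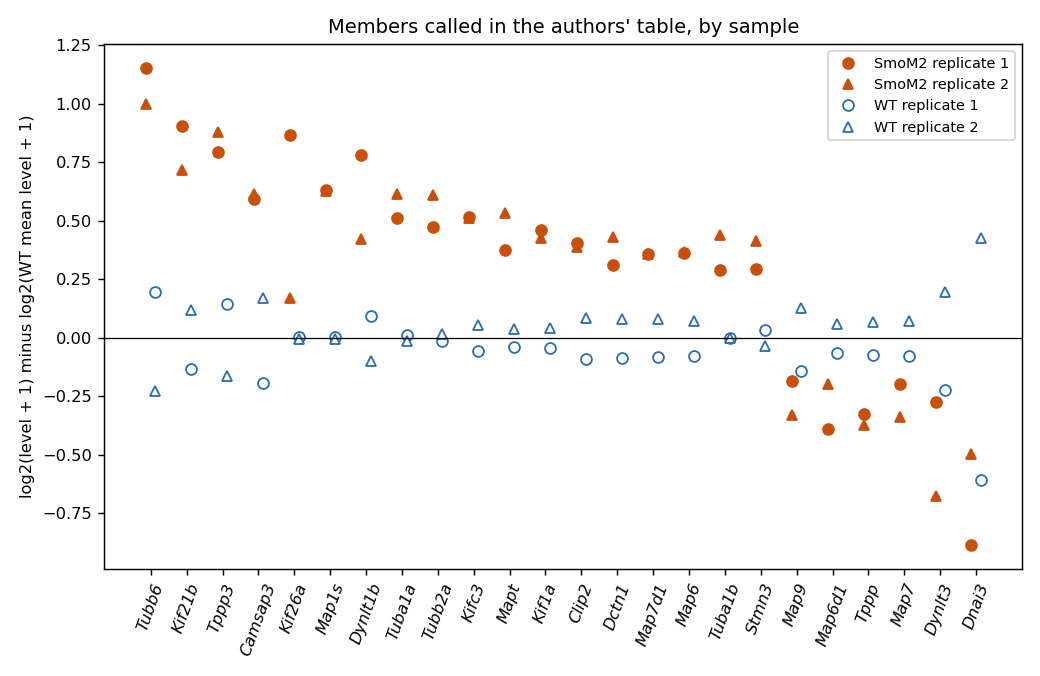
Level of each of the 24 called members in every sample, as log2(level + 1) minus the log2 of the WT mean level plus 1 (vertical axis); filled points are SmoM2 samples, open points WT samples, circles replicate 1 and triangles replicate 2. The SmoM2 samples lie above both WT samples for the 18 genes that rose, with Kif26a split by SmoM2 replicate 1, and Dnai3 is the called gene whose groups overlap.

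The 3 listed mitotic kinesins were higher in SmoM2 at low levels, and none was called. Kif2c, which takes microtubules apart at centromeres, had levels of 1.09 and 1.58 in SmoM2, against 0.46 and 0.51 in WT. Kif18b, a motor of astral microtubules in mitosis, had 1.06 and 0.83 in SmoM2, against 0.34 and 0.42 in WT. The groups of both were apart, but at levels under the filter used for limma. Their log2 fold changes were 1.32 and 1.24 (authors' deposited table, adjusted p = 0.0551 and 0.112). Kifc1, a spindle motor, had 2.32 and 3.0 in SmoM2 and 2.43 and 1.60 in WT, and its groups overlapped. The authors' deposited table gives it a log2 fold change of 0.84, and limma a log2 difference of 0.29 ± 0.25 (SE). That difference was 0.087 without WT replicate 2 and 0.49 without WT replicate 1. The dividing-cell list had 4 of 7 markers in the table, all higher, of which Cdk1 rose. Its summed level was 18.08 and 22.23 in SmoM2 and 11.11 and 9.71 in WT; its part in the levels of the kinesins was not tested. The promoter windows of all 3 hold the CHR element on one strand or the other. So do windows of Clip4, Dctn1, Kif1a, Map7 and Map7d2, which are not mitotic kinesins. The element was in 20.5% of member windows, against 17.9% of all promoters. The windows of the 3 mitotic kinesins are shown from RefSeq on GRCm38.p6, with capitals for matches to the 4 motifs. CCAAT reads ATTGG and TTTGAA reads TTCAAA on the opposite strand. The window of Kif2c lies inside the gene as GENCODE M21 draws it.
Kif18b, chr11:102925075-102925374, minus strand: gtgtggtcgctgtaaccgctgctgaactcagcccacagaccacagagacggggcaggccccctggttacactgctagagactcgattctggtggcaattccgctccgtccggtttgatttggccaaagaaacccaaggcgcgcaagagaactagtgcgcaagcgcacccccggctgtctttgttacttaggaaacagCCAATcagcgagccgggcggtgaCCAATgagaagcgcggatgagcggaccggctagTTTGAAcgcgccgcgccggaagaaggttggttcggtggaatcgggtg
Kifc1, chr17:33890584-33890883, minus strand: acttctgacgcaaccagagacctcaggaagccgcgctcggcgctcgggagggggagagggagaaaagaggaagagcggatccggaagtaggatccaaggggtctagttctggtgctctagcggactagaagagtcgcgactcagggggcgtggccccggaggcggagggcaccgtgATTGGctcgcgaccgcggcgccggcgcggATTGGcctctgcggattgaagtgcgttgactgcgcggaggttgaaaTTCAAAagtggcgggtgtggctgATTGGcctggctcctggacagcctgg
Kif2c, chr4:117178723-117179022, minus strand: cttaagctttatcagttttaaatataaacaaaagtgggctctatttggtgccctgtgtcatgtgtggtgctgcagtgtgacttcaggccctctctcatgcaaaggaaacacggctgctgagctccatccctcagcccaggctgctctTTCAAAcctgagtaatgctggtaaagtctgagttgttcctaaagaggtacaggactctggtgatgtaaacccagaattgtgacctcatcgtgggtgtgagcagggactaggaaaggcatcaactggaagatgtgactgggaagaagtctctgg

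Cytoplasmic dynein had 7 listed members, of which 1 rose and 1 fell, where 37.3% of all listed genes were called. Dynlt1b, a Tctex-type light chain that links dynein to cargo, had levels of 389.2 and 303.6 in SmoM2, against 241.4 and 211.1 in WT. Dynlt3, another light chain of this type, had 75.24 and 56.86 in SmoM2, against 78.02 and 104.6 in WT. The light chains thus went opposite ways, with log2 fold changes of 0.55 for Dynlt1b (adjusted p = 7.28e-05) and -0.53 for Dynlt3 (adjusted p = 0.000138), per the authors' deposited table. The difference of Dynlt3 rests on SmoM2 replicate 2 and WT replicate 2. Its limma log2 difference of -0.46 was -0.26 without SmoM2 replicate 2 and -0.25 without WT replicate 2. Dynlt1b has near-identical copies on chromosome 17, of which Dynlt1a and Dynlt1f were listed, higher and not called. Reads could be split among them, so separate values are uncertain. The summed level of the 3 copies was 442.3 and 358.7 in SmoM2 and 283.3 and 245.8 in WT. Dync1h1, the motor subunit, had 60.67 and 67.49 in SmoM2 and 45.07 and 62.91 in WT, and its groups overlapped. Dync1li2, a light intermediate chain, was the 1 member whose directions differed. The authors' deposited table gives it a log2 fold change of -0.23, while its levels were 88.17 and 136.8 in SmoM2 and 87.63 and 102.0 in WT, a limma log2 difference of 0.21 ± 0.21 (SE). This difference in direction rests on SmoM2 replicate 2: the limma value was -0.099 without that library, and 0.53 without SmoM2 replicate 1. Dctn1, the large subunit of dynactin, which joins dynein to cargo, rose. It had 190.6 and 207.5 in SmoM2, against 144.8 and 162.4 in WT, and a log2 fold change of 0.33 (authors' deposited table, adjusted p = 0.0202).

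Genes of ciliary dynein lay on both sides of 0, most of them at low levels. Of 6 ciliary dynein genes Dnai3 was the one called, and it fell, where 37.3% of all listed genes were called. Dnai3, an axonemal intermediate chain, was listed at 0 and had 0.31 in the SmoM2 samples, against 0.21 and 1.48 in the WT samples. Its groups overlapped, so the log2 fold change of -3.30 rests on WT replicate 2 and on the library listed at 0, and the adjusted p of 0.0490 was the called value nearest to the threshold (authors' deposited table). Dnai4, of the same family, had 0.93 and 1.37 in SmoM2, against 2.04 and 1.76 in WT, and was not called (authors' deposited table, adjusted p = 0.0690). Dnah11 and Dnah5, axonemal heavy chains that drive the ciliary beat, had levels of at most 0.51 and were higher without being called. Dnal1, a light chain and the most abundant of the 6, had 39.89 and 43.81 in SmoM2, against 47.82 and 48.60 in WT, and was not called. Dync2i2 belongs to the dynein that returns cargo along cilia, and was higher by 0.34 on the log2 scale without being called (authors' deposited table, adjusted p = 0.110).

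Dynlrb2, a dynein light chain of ciliated cells, had levels of 1.38 and 4.03 in SmoM2, against 7.18 and 5.41 in WT. Its log2 fold change of -1.33 was not called (authors' deposited table, adjusted p = 0.459), and SmoM2 replicate 1 was the lowest sample. Dynlrb2 was the 1 gene of 8 ependymal markers with a row; Foxj1, Rsph1 and the other 5 had none. Choroid plexus markers had 7 of 7 genes in the table, all lower, and 5 fell, where 16.0% of all listed genes fell. Their summed level was 77.63 and 630.9 in SmoM2 and 1224 and 1189 in WT, again lowest in SmoM2 replicate 1. Most of that sum was Ttr, with 71.24 and 618.0 in SmoM2 and 1203 and 1162 in WT. Folr1 had 1.85 and 6.01 in SmoM2, against 10.89 and 10.96 in WT. Aqp1 differed little between the SmoM2 samples, at 2.26 and 2.48, against 3.47 and 3.80 in WT. The part of choroid plexus content in the levels of the ciliary genes was not tested. Dynlrb2 had a limma log2 difference of -1.07, and of -0.53 when SmoM2 replicate 1 was left out. Windows of Clip2, Clip4, Kif1a and Map9 hold the X-box arm, as does that of Dynlrb2. The arm was in 12.8% of member windows, against 12.5% of all promoters. The promoter of Dynlrb2 is shown for its X-box arm, in capitals, shortly before the start (RefSeq, GRCm38.p6).
Dynlrb2, chr8:116504765-116505064, plus strand: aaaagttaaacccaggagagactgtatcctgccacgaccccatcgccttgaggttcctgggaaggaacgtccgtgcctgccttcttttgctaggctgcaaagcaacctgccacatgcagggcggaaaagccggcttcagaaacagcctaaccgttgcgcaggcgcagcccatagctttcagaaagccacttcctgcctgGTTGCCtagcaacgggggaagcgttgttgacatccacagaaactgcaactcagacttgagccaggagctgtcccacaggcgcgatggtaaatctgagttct
The intraflagellar transport genes build cilia, and none of the 3 listed was called. Ift74 had 11.59 and 10.96 in SmoM2, against 11.62 and 15.58 in WT, and Ift80 had 3.74 and 5.23 in SmoM2, against 6.56 and 5.79 in WT. Ift122 had 22.19 and 26.82 in SmoM2, against 16.28 and 19.35 in WT, a difference in the other direction. The authors' deposited table gives adjusted p from 0.121 for Ift74 to 0.424 for Ift80.

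Other genes of the microtubule system, from lists that the naming rule leaves out, also moved in both directions. The share called was 66.7% for tubulin-modifying enzymes, 40.0% for tubulin folding, 28.6% for other microtubule-associated proteins and 9.09% for motor adaptors and regulators. Over all listed genes it was 37.3%, with 21.3% called as higher and 16.0% as lower. Of 26 tubulin-modifying enzymes 9 had a row, of which 4 rose and 2 fell. Vash1, which removes the last tyrosine of alpha tubulin, averaged 24.5 in SmoM2 and 13.2 in WT, and Atat1, which acetylates alpha tubulin, averaged 82.6 in SmoM2 and 60.3 in WT. Ttll7, which adds glutamates to tubulin, averaged 34.9 in SmoM2 and 43.9 in WT and fell, as did Sirt2. Of 28 motor adaptors and regulators 11 had a row and 1 was called. That gene was Mapk8ip1, a scaffold that binds kinesin-1, higher by 0.40 on the log2 scale (authors' deposited table). Of 33 other microtubule-associated proteins 14 had a row and 4 rose. They were Mid1, Mark4, Dcx and Gas2l1, with Dcx, a MAP of migrating neurons, at 21.51 and 14.18 in SmoM2, against 11.91 and 14.02 in WT. Of 13 tubulin-folding genes 5 had a row, Tbcc rose and Vbp1 fell. Of 39 further cilium genes Spag16 alone had a row, and it was not called.

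The direction of the members went with the base composition of their transcripts. All 24 members whose longest annotated transcript has a GC content of at least 55% were higher in SmoM2, and 8 of the 9 members under 45% were lower. The exception was Stmn2, which was higher at a GC content of 41.3%. The same held over the table, where 94.4% of 1705 listed genes of at least 55% were higher and 91.0% of 1638 listed genes under 45% were lower. Median GC content was 56.2% for the higher and 45.7% for the lower members, against 56.0% and 43.6% for all listed genes. Across the 52 members, Spearman's rho between GC content and the authors' log2 fold change was 0.50 and Pearson's r 0.40. Across 5226 listed genes with a transcript in GENCODE M21, rho was 0.58 and r 0.32. These are correlations across genes, which share the same 4 libraries and are not independent replicates. With transcript length, rho was -0.06 both over the members and over the listed genes. Between replicates, rho of GC content with the difference in log2(level + 1) was -0.15 for SmoM2 replicate 1 minus replicate 2 and 0.21 for WT replicate 1 minus replicate 2 over the listed genes. For SmoM2 minus WT of the same number it was 0.55 and 0.63. The genes were selected for a difference between the groups and not for one between replicates, so these values are not on an equal footing.

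**Figure D3:**
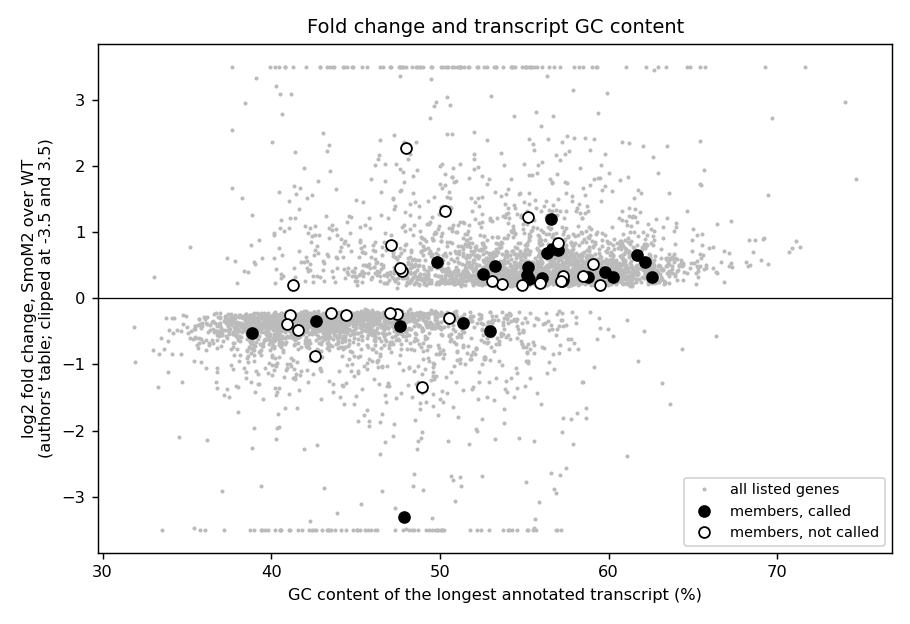
GC content of the longest annotated transcript (horizontal axis, percent) against the log2 fold change of SmoM2 over WT in the authors' deposited table (vertical axis, with listed genes beyond its limits drawn at the edge); grey dots are listed genes, filled circles called members and open circles other members. The gap around 0 is the authors' selection, and the 24 members of at least 55% all lie above 0.

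For each sample, a trend on GC content was fitted to the log2 level of each gene minus its mean over the 4 samples. Removing that trend, a setting chosen after seeing the data, changed which members stood apart. Of the 18 members that rose, 12 kept a positive limma log2 difference and 6 turned negative, and all 5 members that fell and were fitted stayed negative. The 6 were Tuba1b, Map6, Map7d1, Stmn3, Clip2 and Dctn1, with differences between -0.16 and -0.02. Tubb6, at 0.67, Tppp3, at 0.41, Kif21b, at 0.39, and Dynlt1b, at 0.50, stayed the farthest above 0 among those that rose, and Tuba1a stood at 0.25. Among those that fell, Map7 and Map6d1 went farther below 0, to -0.56 and -0.50, and Tppp stood at -0.31. Dynlt3 came closer to 0, at -0.16, and Map9 stood at -0.018, where it had been -0.25 before the correction. Stmn2, not called by the authors, stood at 0.55 after the correction and at 0.29 before it. The lowest limma adjusted p of any member was 0.608 in that fit and 0.238 without the correction. The trend was estimated on genes already selected for a difference, which can misstate it.

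**Figure D4:**
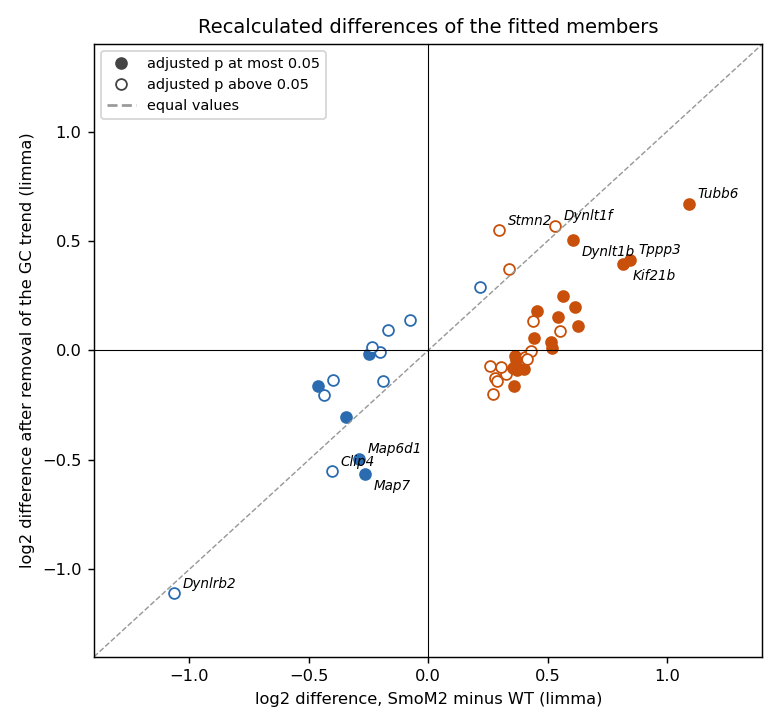
Limma log2 difference of SmoM2 minus WT for the 47 fitted members, as deposited (horizontal axis) and after removal of the GC trend (vertical axis); orange and blue mark the direction in the authors' deposited table, and filled points were called there. Most orange points move down from the dashed line of equal values, with Tubb6 at 1.09 and 0.67.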

How the data were processed

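Per the labels' protocols, TruSeq libraries were made from 1 ug of total RNA per sample. The submitters' processing notes name RSEM, DESeq2 and GRCm38.p6, with neither version nor role. The authors' deposited table holds an expression level (a signal scaled for length and library size) for each of 4 samples, tied to samples by the pairing in the series text, and the authors' group means. For each gene the authors also deposited the ratio (fold) of SmoM2 to WT, the log2 of that fold, and p-values before and after adjustment. The deposited adjusted p-values match a Benjamini-Hochberg factor over 57010 tests for 5266 of 5282 genes, within 1e-06.

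The recalculation used limma 3.58.1 (R 4.3.3, trend on) and log2(level + 1). It kept the 4845 genes whose mean level reached 1 and adjusted p over 57010 tests. Its steps were tested on simulated data. GC content, length and coordinates come from GENCODE M21 (GRCm38). Exons of 17 members overlap a gene on the opposite strand, and those of 2, Tuba1a and Tuba1b, overlap a gene on the same strand.

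1 member is counted but not reported here by name. Members and lists were chosen with earlier results of these data known. Genes named were, in each role, up to 4 called members of largest fold with separate groups, the member of highest level, called members whose groups overlap, and the 4 members nearest to an adjusted p of 0.05 on each side; all other members named were chosen after their values were seen. Alternatives tried were pseudocounts of 0.1 and 5, no filter or a minimum mean level of 5, quantile normalization, equal medians, no trend, a replicate block, leaving out each library, removal of the GC trend, and for the authors' calls an adjusted p of 0.01, separate groups and the sign of the levels.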

Additional observations from a re-analysis of the deposited data

How the results depend on the processing

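At an adjusted p threshold of 0.01, by the authors' deposited table, 11 members rose and 3 fell, in place of 18 and 6; requiring separate groups or taking the sign of the levels left both counts within 1.5 times. The limma count of members past an adjusted p of 0.05 was 0 in both directions in every fit of all 4 samples. The replicate block left the median log2 difference of the members at 0.36. Same-numbered samples had deviations that correlated at -0.09 over 4845 genes, so the numbers were not taken to pair samples. The block changed no member's call, while genes past that threshold went from 6 to 20 of the 4845 fitted. Leaving out a library gave medians from 0.29 to 0.39 for all members, 0.34 to 0.50 for other kinesins, 0.11 to 0.34 for cytoplasmic dynein, 0.087 to 0.49 for mitotic kinesins, which is Kifc1 alone, and -0.32 to -0.040 for intraflagellar transport. Equal medians and quantile normalization lowered the median of all fitted genes from 0.25 to 0.16 and 0.13. The members' medians were then 0.26 and 0.22 in place of 0.36, structural MAPs 0.21 and 0.16 in place of 0.30, end-binding proteins 0.31 and 0.28 in place of 0.40, other kinesins 0.39 and 0.34 in place of 0.48, and ciliary dynein -0.30 and -0.28 in place of -0.20. Equal medians gave 0.38 for tubulins in place of 0.47, quantile normalization 0.14 for cytoplasmic dynein in place of 0.26, and a pseudocount of 5 gave 0.36 for other kinesins. Ciliary dynein had a median of -0.020 with no filter on low levels and 0.11 with a minimum mean level of 5, where fewer genes remain.

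Removal of the GC trend took the median to -0.018 for all members, 0.064 for tubulins, -0.075 for structural MAPs, -0.084 for end-binding proteins, 0.048 for other kinesins, -0.14 for mitotic kinesins, -0.039 for ciliary dynein and 0.014 for intraflagellar transport, while cytoplasmic dynein had 0.29 in place of 0.26, against -0.0012 for all genes fitted. That fit reversed the limma log2 difference of 18 of the 47 members fitted. Among genes named by the rule it took Clip2 to -0.084, Dctn1 to -0.087, Kifc1 to -0.14, Kifc2 to -0.20, Klc1 to -0.13, Map6 to -0.043, Stmn3 to -0.079, Tuba1b to -0.025 and Tubg2 to -0.029. Among other members it took Map7d1 to -0.16, Map1a to -0.075, Tubg1 to -0.11, Dync1h1 to -0.072, Dync2i2 to -0.039, Ift74 to 0.014, Kif5b to 0.092 and Spast to 0.14. 2 samples a group, unknown depth and a table of selected genes limit every value here: genes with no row could not be compared, and levels near 0 carry few reads.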
